A study of Homo sapiens with 9 samples.

Results

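The transcripts of human chromosome 14 were followed along the chromosome in 22Rv1 cells, a human prostate cancer line, with and without knockdown of SSX2, a cancer/testis antigen gene of the X chromosome. Members were selected on their measured values, as the transcripts that the array's naming puts on chromosome 14 and whose mean over 9 arrays was at least 7 on the log2 scale. There were 551 members among 2280 chromosome 14 transcripts, and 67528 transcripts were measured in all, 17215 of them at that level. They were ordered by gene position to see where both comparisons of the knockdown with its controls shifted together and where the borders of each shift lay. The segments below were chosen by both of these comparisons, so the values of each are given as a description, without a test.

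The chips were Affymetrix Human Transcriptome Arrays 2.0, which carry probes along each transcript, and there were 3 arrays in each of 3 groups. KD is the 22Rv1 line transfected with shRNA against SSX2, labelled as having no SSX expression. SCR is 22Rv1 transfected with scramble shRNA, and both lines were kept under neomycin at 1 mg/ml. WT is the untransfected line. Arrays of a group are labelled technical replicates, so any p-value or SE below measures the spread between such arrays and not between separately made lines. Nothing in the sources says whether a transfected line was 1 clone or a pool.

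Genes on a chromosome are usually read by their own promoters, and neighbours need not change together. The number of copies of a stretch of chromosome and long domains of chromatin are both known to bear on the RNA of many neighbouring genes at once. An expression array measures RNA alone, DNA and chromatin were not analysed here, and their part was not tested. Chromosome 14 carries genes of many functions, among them proteasome subunits, FOXA1, a transcription factor that works with the androgen receptor in prostate luminal cells, and NFKBIA, the inhibitor of NF-kappaB.

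Of the members, 340 had 1 gene symbol, 10 had several and 201 had none. RefSeq gave 337 of them a position on chromosome 14, which made an order of 333 genes, 310 of them protein-coding, after 4 further transcripts of CINP, FBXO34, ZBTB42 and ZFP36L1 were set aside. A further 104 members were placed between neighbours by their ID numbers, and 110 were not placed. As many as 12 members held the same values as another member. Just inside the level of 7 lay OTUB2 (7.001), BNIP3P1 (7.005) and a transcript with no symbol (7.009), and just outside lay FANCM (6.990), SLC38A6 (6.995) and RAB15 (6.996). Because the level was a mean over all 9 arrays, 34 members reached 7 in the KD mean and not in the control mean, and 43 did so in the control mean and not in the KD mean.

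The order fell into 6 segments, called A to F here, and the 2 borders with a single best position lay between NOVA1 and BNIP3P1 (A and B) and between RTRAF and TXNDC16 (D and E). The promoters of genes beside these borders are shown to give the places of those genes in the genome. A border is a position in the order of genes, so in the genome it may lie anywhere between its neighbours. Each sequence runs from 250 bases before to 50 bases after the transcription start of the gene, on its own strand, in GRCh38.p14. For a gene on the minus strand this is not the RefSeq start coordinate by which the genes were ordered. NOVA1 (chr14:26597984-26598283, minus strand) encodes a neuronal RNA-binding protein that controls splicing and is the last gene of segment A. G2E3 (chr14:30558908-30559207, plus strand) encodes a ubiquitin ligase and follows the pseudogene BNIP3P1 in segment B. RTRAF (chr14:51989296-51989595, plus strand), whose product works in RNA transport and a tRNA ligase complex, is the last gene of segment D, and TXNDC16 (chr14:52552456-52552755, minus strand), a thioredoxin-domain gene, is the first gene of segment E. Capitals mark matches on either strand to the GC box (GGGCGG or CCGCCC), the CCAAT box (CCAAT or ATTGG) and the TATA box (TATAAA or TTTATA).
NOVA1: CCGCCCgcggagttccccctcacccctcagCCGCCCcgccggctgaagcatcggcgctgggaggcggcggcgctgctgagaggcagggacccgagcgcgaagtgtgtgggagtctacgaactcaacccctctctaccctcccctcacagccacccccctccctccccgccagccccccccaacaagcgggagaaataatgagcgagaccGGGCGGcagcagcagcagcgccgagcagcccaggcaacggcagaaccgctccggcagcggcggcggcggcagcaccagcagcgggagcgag
G2E3: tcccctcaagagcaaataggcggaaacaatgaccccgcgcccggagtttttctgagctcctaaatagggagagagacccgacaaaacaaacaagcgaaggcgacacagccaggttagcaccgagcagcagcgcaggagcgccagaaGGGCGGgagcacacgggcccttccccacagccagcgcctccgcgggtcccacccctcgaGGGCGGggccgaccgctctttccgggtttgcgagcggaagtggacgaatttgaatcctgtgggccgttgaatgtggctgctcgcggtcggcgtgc
RTRAF: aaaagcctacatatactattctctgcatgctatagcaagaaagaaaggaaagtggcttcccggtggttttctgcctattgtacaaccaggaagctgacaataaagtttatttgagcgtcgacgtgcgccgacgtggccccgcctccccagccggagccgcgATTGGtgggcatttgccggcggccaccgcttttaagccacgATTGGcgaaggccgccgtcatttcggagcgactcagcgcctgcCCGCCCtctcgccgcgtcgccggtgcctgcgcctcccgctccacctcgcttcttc
TXNDC16: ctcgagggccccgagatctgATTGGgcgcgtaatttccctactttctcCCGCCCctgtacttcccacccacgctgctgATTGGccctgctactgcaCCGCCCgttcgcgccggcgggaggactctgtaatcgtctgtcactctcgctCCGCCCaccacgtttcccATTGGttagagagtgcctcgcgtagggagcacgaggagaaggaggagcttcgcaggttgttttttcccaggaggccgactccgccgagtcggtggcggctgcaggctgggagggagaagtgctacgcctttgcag
The GC box matched 3 times in the NOVA1 window, 2 times in G2E3, 1 time in RTRAF and 3 times in TXNDC16. CCAAT letters matched 2 times in RTRAF and 3 times in TXNDC16, and no window held the TATA letters. Over the promoters of the genes in order, the GC box letters occurred in 72.2% of segment B, 68.8% of segment D, 75.2% of segment E, 60.9% of segment A, 70% of segment C and 87% of segment F, and in 44.6% of all 27305 promoters of the same length. The CCAAT letters occurred in 27.8%, 31.2%, 38.8%, 56.5%, 20% and 30.4% of the same segments and in 35.7% of all promoters, and the motifs did not overlap in the 4 windows printed. Such matches are letters in a window and no more.

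Before the chromosome is described, the arrays and labels were checked. SSX2, measured together with its copy SSX2B, had a level of 5.19, 5.06 and 5.14 in KD arrays, against 11.94 in each SCR array and 11.89, 11.89 and 11.98 in WT arrays. Array medians lay between 5.41 and 5.44 in KD and between 5.48 and 5.50 in the control arrays. The luminal keratins KRT8 and KRT18 stayed bright in all groups, but of 8 measured luminal markers 5 were called lower in KD against SCR, with KLK2, HOXB13, TMPRSS2 and FOXA1 among them. Conversely, 4 of 5 measured markers of prostate lines without androgen receptor were called higher (VIM, AXL, CAV1, ANXA1), and their summed level was 12.23 to 12.29 in KD arrays, against 8.62 to 8.64 in SCR and 8.80 to 8.88 in WT arrays. Markers of basal cells, leukocytes and endothelium had summed levels of at most 7.04 in every array, with no call, and 1 of 5 stromal and 1 of 3 neuroendocrine markers were called lower. In a bulk array a change in every cell and a change in the mix of cells cannot be told apart, and the part of these markers in the shifts below was not tested.

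Over all members, 129 were called higher and 47 lower in KD against SCR, and 139 higher and 44 lower against WT. A call means a limma p-value under 0.05 after Bonferroni adjustment over all 67528 transcripts. Calls higher in KD against SCR made up 4.08% of all transcripts and 9.35% of those of level 7 or more, and calls lower made up 4.68% and 11.7%. Against WT these shares were 4.13% and 9.6% for higher calls and 4.49% and 11.2% for lower ones. The KD arrays lay above all 6 control arrays in 280 members and below them in 141, beside 29.7% and 42.3% of all transcripts of level 7 or more. Since both comparisons placed the segments and share the KD arrays, nothing is read from these counts.

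Segments B, D and E were those in which both comparisons shifted upward together, by at least 0.2 on the log2 scale from the median of all 9680 genes of level 7 or more, which was -0.05 in each comparison. In the 22 genes of segment B, from BNIP3P1 to MBIP, the median difference was 1.40 (2.63-fold) for KD minus SCR and 1.34 (2.54-fold) for KD minus WT. In the 17 genes of segment D, from LRR1 to RTRAF, it was 1.14 (2.21-fold) and 1.15 (2.22-fold). In the 189 genes of segment E, from TXNDC16 to XRCC3, it was 0.39 (1.31-fold) and 0.41 (1.33-fold). The other segments did not pass 0.2 in both comparisons, although segment C did so against WT (0.24 from the median of all genes, and 0.18 against SCR). Segment A (57 genes, TTC5 to NOVA1) had medians of -0.15 and -0.12, segment C (14 genes, NKX2-8 to RN7SL1) 0.12 and 0.19, and segment F (34 genes, ZFYVE21 to IGHV4-61) -0.06 and -0.04.

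**Figure D1:**
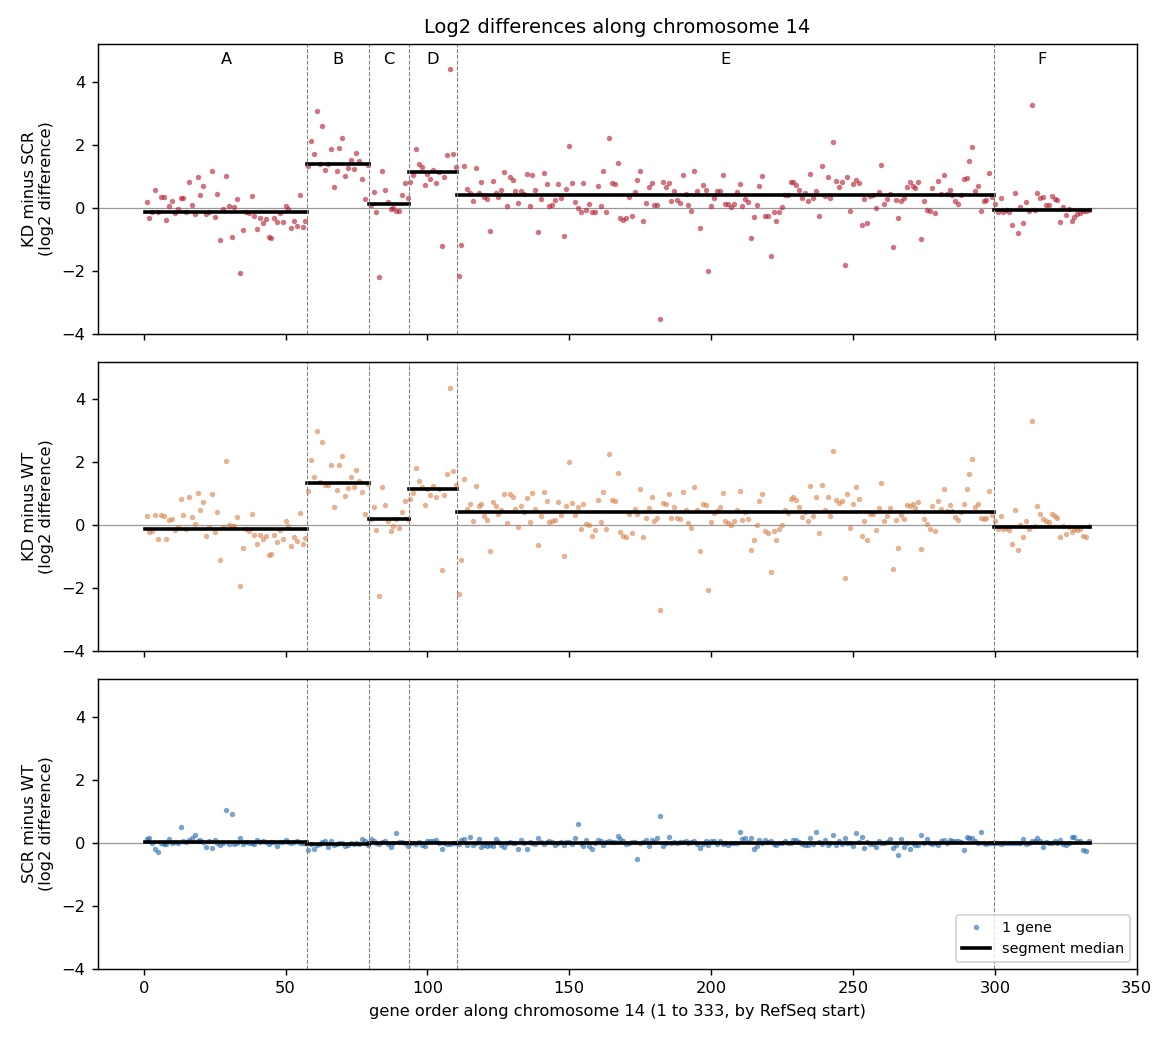
Log2 differences of group means (vertical axes) for the 333 genes in chromosome order (horizontal axis), with KD minus SCR, KD minus WT and SCR minus WT from top to bottom; each point is 1 gene, black lines are segment medians and dashed lines are borders. Segments B and D stand above the rest in both upper panels, with medians of 1.14 to 1.40, and all 6 segment medians of SCR minus WT lie between -0.03 and 0.02.

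The 3 KD arrays gave nearly the same shift. In segment B the median over genes, taken against the mean of the 6 control arrays, was 1.39, 1.40 and 1.36 in the KD arrays. The same median was -0.09, -0.02 and 0.02 in SCR arrays taken against WT, and 0.03, 0.06 and -0.01 in WT arrays taken against SCR. In segment D it was 1.15, 1.14 and 1.12 in KD arrays, against -0.06 to 0.04 in the control arrays, and in segment E it was 0.37, 0.41 and 0.39, against -0.04 to 0.02. No KD array overlapped a control array in any of these 3 segments, and the same held for the smaller differences of A, with -0.15, -0.07 and -0.11 in KD arrays against -0.04 to 0.04 in the control arrays, and of C, with 0.17, 0.14 and 0.15 against -0.02 to 0.03. Separation of the arrays was thus not particular to B, D and E. In segment F the KD arrays (-0.05, -0.02 and 0.01) lay among the control arrays (-0.06 to 0.05).

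**Figure D2:**
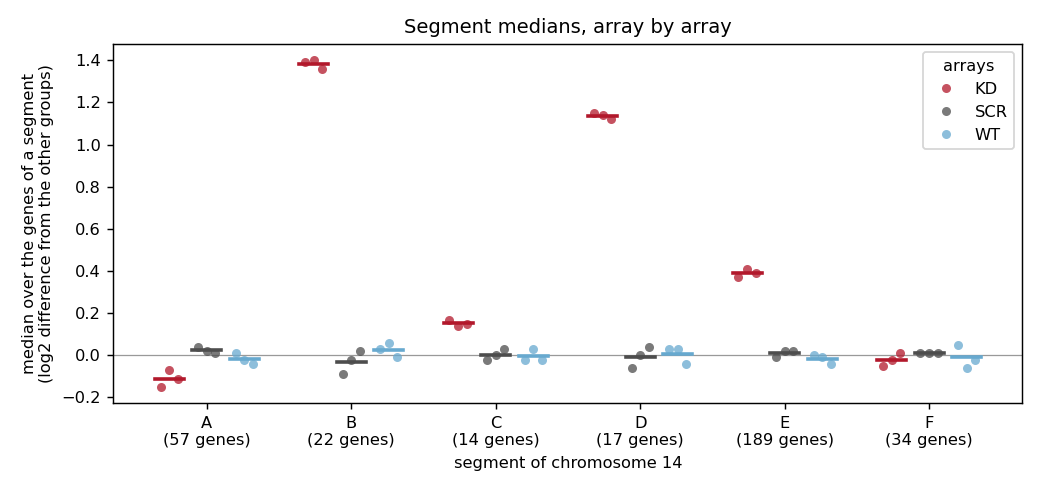
Median log2 difference over the genes of each segment (vertical axis) for each of 9 arrays, with KD arrays set against the mean of the 6 control arrays and SCR and WT arrays against each other; points are arrays and bars are group means. The KD points of segments B, D and E lie at 1.36 to 1.40, 1.12 to 1.15 and 0.37 to 0.41, above every control point.

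Segment B was uniform in direction. All 22 genes had a difference above 0 in both comparisons, all 22 had KD arrays above the 6 control arrays, and 20 were called higher in each. The lower and upper quartiles of KD minus SCR over its genes were 1.22 and 1.82. COCH, the gene of the extracellular matrix protein cochlin, had levels of 10.10, 10.21 and 10.13 in KD arrays, against 7.05, 7.12 and 7.10 in SCR and 7.23, 7.15 and 7.09 in WT arrays. KD and control arrays were thus about 3 units apart, with KD minus SCR at 3.06 ± 0.05 (limma SE, n = 3 arrays a group) and KD minus WT at 2.99 ± 0.05. It had the greatest difference of the segment. HEATR5A, a HEAT-repeat gene, had levels of 10.22, 10.20 and 10.15 in KD arrays, against 7.55, 7.57 and 7.63 in SCR and 7.56, 7.55 and 7.53 in WT arrays. Its difference was 2.61 ± 0.05 against SCR and 2.64 ± 0.05 against WT.

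CFL2, which encodes the actin-severing protein cofilin 2, had levels of 10.61, 10.60 and 10.60 in KD arrays, against 8.39, 8.41 and 8.39 in SCR and 8.38, 8.43 and 8.43 in WT arrays. The KD arrays lay 2.21 above SCR and 2.19 above WT, each with an SE of 0.04. SNX6, a sorting nexin of the endosome, stood at 11.09, 11.06 and 11.09 in KD arrays, against 9.15, 9.18 and 9.23 in SCR and 9.17, 9.23 and 9.15 in WT arrays, a difference of 1.89 against SCR. Genes near the segment median were STRN3, a regulatory subunit of phosphatase complexes (1.40 against SCR, 1.37 against WT), and NUBPL, an assembly factor of respiratory complex I (1.39 and 1.27). PSMA6, a subunit of the proteasome core, had 10.85, 10.96 and 10.89 in KD arrays, against 9.43, 9.41 and 9.44 in SCR and 9.50, 9.47 and 9.48 in WT arrays. STRN3 and NUBPL are named because they lie nearest the median, and the differences of the segment ran from 0.29 to 3.06 against SCR.

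The lowest differences of segment B were those of RALGAPA1 and SPTSSA, and neither was called. RALGAPA1, a subunit of the GTPase activator of Ral proteins, had levels of 9.86, 9.85 and 9.88 in KD arrays, against 9.53, 9.56 and 9.62 in SCR and 9.49, 9.55 and 9.49 in WT arrays. Its KD arrays were still above all control arrays, by 0.29 ± 0.05 and 0.35 ± 0.05. SPTSSA, a small subunit of serine palmitoyltransferase, varied more between KD arrays (9.18, 8.87 and 8.58) than between SCR (8.20, 8.20 and 8.25) or WT arrays (8.31, 8.36 and 8.22). NFKBIA had 10.24, 10.28 and 10.20 in KD arrays, against 9.31, 9.30 and 9.33 in SCR and 9.30, 9.14 and 9.12 in WT arrays, a difference of 0.92 ± 0.06 against SCR and 1.05 ± 0.06 against WT.

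The border between A and B could stand at 1 position only within the range of near-equal costs. The 3 genes before it, KHNYN, SDR39U1 and NOVA1, had a median KD minus SCR of -0.41, and the 3 genes after it, BNIP3P1, G2E3 and SCFD1, had 1.70. NOVA1 had levels of 7.24, 7.16 and 7.22 in KD arrays, against 7.60, 7.64 and 7.61 in SCR and 7.61, 7.63 and 7.57 in WT arrays. G2E3 had 9.27, 9.36 and 9.36 in KD arrays, against 7.11, 7.27 and 7.28 in SCR and 7.22, 7.32 and 7.26 in WT arrays. The KD arrays were thus lower than every control array at the last gene of A and about 2 units higher at G2E3. SCFD1, which acts in transport between endoplasmic reticulum and Golgi, continued this with 9.94, 9.89 and 9.89 in KD arrays, against 8.13, 8.20 and 8.27 in SCR and 8.37, 8.44 and 8.32 in WT arrays. BNIP3P1 is a pseudogene of BNIP3 and its probes may read related RNA, so its difference of 1.31 ± 0.08 against SCR and 1.08 ± 0.08 against WT is uncertain. With the level minimum set on the control arrays BNIP3P1 was left out, and the border stood before G2E3.

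Segment C interrupted the shift for 14 genes. Its border with B could lie at 3 positions, from RALGAPA1 to NKX2-8, and its border with D at 2, before LRR1 or RPL36AL. MBIP, a subunit of a histone acetyltransferase complex and the last gene of B, had 9.39, 9.31 and 9.29 in KD arrays, against 7.87, 7.92 and 8.08 in SCR and 8.08, 8.03 and 7.94 in WT arrays. The next gene, NKX2-8, a homeobox transcription factor, had 7.28, 7.23 and 7.23 in KD arrays, against 7.19, 7.18 and 7.16 in SCR and 6.90, 7.07 and 7.21 in WT arrays. Its KD minus SCR difference was 0.07 ± 0.07, so no shift was seen at this gene. NKX2-8 and the next genes, PAX9 and MIPOL1, had mean levels of 7.16, 7.12 and 7.02, close to the level minimum. Such low levels limit what these genes show about where the shift ended. FOXA1 was the member with the greatest fall in the segment. Its levels were 8.11, 8.14 and 8.02 in KD arrays, against 10.28, 10.32 and 10.29 in SCR and 10.31, 10.35 and 10.33 in WT arrays, a difference of -2.21 ± 0.05 against SCR and -2.24 ± 0.05 against WT. It stands among the luminal markers above, several of which were lower in KD.

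Segment C also held SEC23A, a coat protein of vesicles that leave the endoplasmic reticulum, with the highest difference of the segment. SEC23A had 10.34, 10.35 and 10.30 in KD arrays, against 9.15, 9.18 and 9.16 in SCR and 9.13, 9.17 and 9.10 in WT arrays, 1.17 ± 0.04 and 1.20 ± 0.04. PNN, a nuclear protein of splicing, was near the median of the segment at 0.18 ± 0.06 and 0.15 ± 0.06. The last genes before D were FKBP3, an immunophilin (0.39 and 0.43), RPS29, a ribosomal protein gene (0.77 and 0.77), and RN7SL1, the RNA of the signal recognition particle (0.30 and 0.20). RPS29, RN7SL1 and RPL36AL have near-identical copies elsewhere, and their probes may read those as well, so the exact place of the border between C and D rests partly on genes of uncertain value. Taken at RefSeq ends in place of starts, that border moved to RPS29.

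Segment D was nearly as uniform as B, with 16 of 17 genes above 0 in both comparisons and 15 called higher. The exception was ATL1, which encodes atlastin, a GTPase that fuses tubules of the endoplasmic reticulum. ATL1 had 6.83, 6.65 and 6.54 in KD arrays, against 7.89, 7.90 and 7.89 in SCR and 8.03, 8.14 and 8.10 in WT arrays, -1.22 ± 0.07 and -1.42 ± 0.07. The highest difference of all 333 genes belonged to PYGL, the liver glycogen phosphorylase. PYGL had 11.30, 11.32 and 11.30 in KD arrays, against 6.89, 6.96 and 6.88 in SCR and 7.02, 6.95 and 6.89 in WT arrays, 4.40 ± 0.05 (21.1-fold) and 4.35 ± 0.05 (20.4-fold). PYGL was thus about 3 units above the median of its own segment.

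The other genes of segment D lay between 0.73 and 1.87 against SCR. MGAT2, an enzyme of N-glycan synthesis in the Golgi, had 9.79, 9.93 and 9.93 in KD arrays, against 7.99, 8.09 and 7.98 in SCR and 8.09, 8.15 and 7.96 in WT arrays. NIN, the centrosome protein ninein, had 9.66, 9.71 and 9.71 in KD arrays, against 7.97, 8.06 and 8.07 in SCR and 8.09, 8.09 and 8.05 in WT arrays. Their differences against SCR were 1.87 ± 0.07 and 1.66 ± 0.05, both above the segment median. POLE2, a subunit of DNA polymerase epsilon (1.28), DNAAF2, an assembly factor of dynein arms (1.38), SOS2, an exchange factor of Ras (1.19), and the kinase gene MAP4K5 (1.14) were closer to it. LRR1, a substrate receptor of a ubiquitin ligase that acts at replication, opened the segment with 8.06, 8.19 and 8.10 in KD arrays, against 7.23, 7.30 and 7.34 in SCR and 7.32, 7.35 and 7.22 in WT arrays.

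The border between D and E had 1 position. RTRAF, before it, had 10.52, 10.50 and 10.53 in KD arrays, against 9.18, 9.20 and 9.28 in SCR and 9.30, 9.17 and 9.25 in WT arrays. TXNDC16, after it, had 6.84, 6.78 and 6.59 in KD arrays, against 8.86, 8.89 and 8.93 in SCR and 8.88, 9.05 and 8.86 in WT arrays. Neighbouring genes thus stood on opposite sides of the controls, with KD minus SCR at 1.30 ± 0.05 and -2.16 ± 0.08. GPR137C, the next gene, was also lower in KD, with 6.21, 6.53 and 6.48, against 7.59, 7.57 and 7.59 in SCR and 7.53, 7.58 and 7.41 in WT arrays. ERO1A, an oxidase of the endoplasmic reticulum and the third gene of E, was higher, with 10.83, 10.74 and 10.72 in KD arrays, against 9.36, 9.44 and 9.49 in SCR and 9.24, 9.37 and 9.29 in WT arrays. The step in medians over the whole border was -0.75 against SCR and -0.74 against WT.

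**Figure D3:**
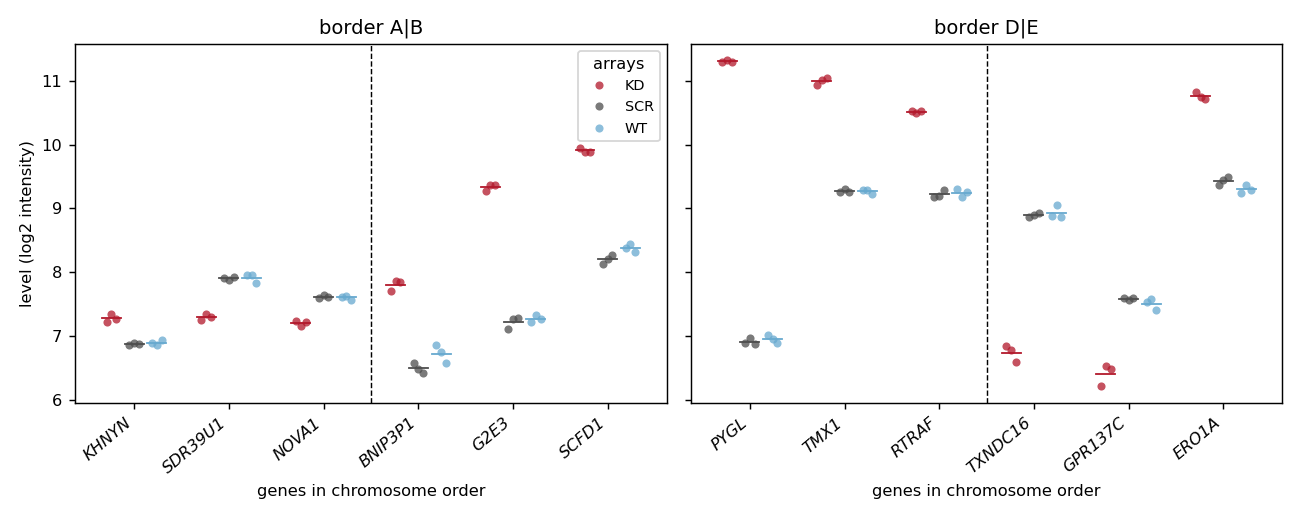
Level (log2 intensity, vertical axis) of the 3 genes before and the 3 genes after the borders A|B (left) and D|E (right) in each array; points are arrays, short bars are group means and the dashed line is the border. KD points of G2E3 lie between 9.27 and 9.36, above its control points at 7.11 to 7.32, while those of TXNDC16 lie between 6.59 and 6.84, below its control points at 8.86 to 9.05.

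Segment E was long and mixed. KD minus SCR was above 0 in 148 of its 189 genes and KD minus WT in 150, with 59 called higher and 13 lower against SCR and 65 and 11 against WT. Its quartiles of KD minus SCR were 0.05 and 0.76. Brighter genes had the greater median, which was 0.29 for the 80 genes of level 7 to 8, 0.36 for the 64 of level 8 to 9 and 0.59 for the 45 of level 9 or more. These levels are means over all 9 arrays, so a gene higher in KD also counts as brighter, and the order of these medians is partly built in. In E, 17 genes reached 7 only in the KD mean and 12 only in the control mean. Over the whole order, a running median over 25 genes stayed at least 0.2 above the all-gene median in both comparisons in several runs. The longest went from NOVA1 to PLEKHG3 (103 genes), from VTI1B to AREL1 (33 genes) and from CIPC to C14orf180 (86 genes). The window crosses borders, so the first run also held the last gene of A and all of B, C and D. The last run ended in F, and in it the running median reached 0.71, at TDP1. Stretches of lower values between these runs lay inside E.

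The 4 highest genes of E with no overlap were PALS1, TTC7B, SNAPC1 and TNFAIP2. PALS1, a scaffold of epithelial polarity, had 10.09, 9.97 and 9.97 in KD arrays, against 7.71, 7.82 and 7.83 in SCR and 7.70, 7.84 and 7.68 in WT arrays, 2.22 ± 0.06 and 2.27 ± 0.06. TTC7B, of the phosphatidylinositol 4-kinase complex, had 8.97, 9.08 and 8.93 in KD arrays, against 6.89, 6.94 and 6.86 in SCR and 6.70, 6.59 and 6.64 in WT arrays. SNAPC1, which acts in transcription of small nuclear RNA genes, differed by 1.97 ± 0.07 from SCR and 2.01 ± 0.07 from WT, and TNFAIP2, a gene induced by tumour necrosis factor, by 1.94 ± 0.06 and 2.09 ± 0.06. Of the 5 brightest genes in the order, 3 lay in E and did not move together. HSP90AA1, the inducible HSP90 alpha gene (0.45 and 0.44), and PAPOLA, a poly(A) polymerase (0.67 and 0.65), were above the segment median. ERG28 went the other way, with 10.60, 10.77 and 10.69 in KD arrays, against 11.03, 10.97 and 10.93 in SCR and 11.19, 11.14 and 11.13 in WT arrays, so that its KD arrays lay below all control arrays (-0.29 and -0.47, neither called). The other bright genes were RN7SL1 of C and APEX1 of A, an enzyme of base excision repair (0.34 and 0.28).

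Of the genes of E below 0 against SCR, 13 were called lower, and the lowest are given here. SMOC1, the gene of a matrix protein, had 6.46, 6.59 and 6.51 in KD arrays, against 10.02, 10.14 and 10.00 in SCR and 9.24, 9.23 and 9.15 in WT arrays. KD arrays were -3.53 ± 0.06 from SCR and -2.69 ± 0.06 from WT, the lowest values of the 333 genes. ALDH6A1, a mitochondrial enzyme of valine breakdown, had 7.86, 7.60 and 7.41 in KD arrays, against 9.60, 9.63 and 9.68 in SCR and 9.69, 9.72 and 9.67 in WT arrays. TC2N, a gene with C2 domains, had 6.82, 6.71 and 6.68 in KD arrays, against 8.49, 8.55 and 8.62 in SCR and 8.38, 8.45 and 8.38 in WT arrays. These genes, with TXNDC16, were the 4 lowest of the segment by KD minus SCR.

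Toward the end of the order, the border between E and F could lie at 5 positions, from XRCC3 to ASPG, and its step was -0.45 against SCR and -0.46 against WT. KLC1, a kinesin light chain just before it, had 9.29, 9.39 and 9.40 in KD arrays, against 8.23, 8.26 and 8.27 in SCR and 8.29, 8.28 and 8.20 in WT arrays. XRCC3, of homologous recombination, was at 0.35 and 0.33, and ZFYVE21, the first gene of F, at 0.13 in both comparisons. F was flat except for single genes. AHNAK2, a large scaffold protein gene, had 10.00, 9.97 and 9.89 in KD arrays, against 6.66, 6.69 and 6.72 in SCR and 6.63, 6.64 and 6.62 in WT arrays, 3.26 ± 0.05 and 3.32 ± 0.05. ADSS1, an adenylosuccinate synthase, was the 1 gene of F called lower, at -0.79 ± 0.05 and -0.80 ± 0.05.

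Segment A had more genes lower than higher, with 22 of 57 above 0 in each comparison. This was not particular to A, since the median of all genes was itself below 0 (-0.05 in each comparison). The medians of A were -0.10 and -0.07 from it. SLC7A8, an amino acid transporter, had 6.53, 6.48 and 6.52 in KD arrays, against 8.67, 8.61 and 8.45 in SCR and 8.52, 8.36 and 8.43 in WT arrays, -2.07 ± 0.07 and -1.93 ± 0.07. RBM23, an RNA-binding protein (-1.03 and -1.10), PSME1, a proteasome activator (-0.95 and -0.92), and DCAF11, a ubiquitin ligase adaptor (-0.93 and -0.96), followed. The highest were ABHD4 (1.15 and 1.00), AJUBA, a LIM-domain gene of cell junctions (1.00 and 2.04), RAB2B, of membrane traffic (0.98 and 1.03), and the chromatin remodeller CHD8 (0.81 and 0.90). With the penalty on borders halved, A split before SLC7A8 into a pair of segments. The same split was found with squared deviation and with the level minimum on the control arrays, and not with the other alternatives. From PABPN1 to NOP9 the running median used for segment E was -0.34 to -0.41 against SCR and -0.30 to -0.38 against WT. That stretch of A thus lay more than 0.2 below the all-gene median of -0.05 in both comparisons. The medians of A as a whole (-0.15 and -0.12) did not show this.

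Lists of genes by function cut across the segments. Over the 333 genes in order, 30.3% were called higher and 7.21% lower against SCR, beside 9.35% and 11.7% of all transcripts of level 7 or more, and the counts below stand against these shares. Of 8 proteasome genes fixed for chromosome 14, 7 were members, 3 called higher and 1 lower against SCR. The 3 higher ones, PSMA6 (1.47, segment B), PSMA3 (1.06, E) and PSMC1 (0.99, E), lay beyond the border of A, whereas PSMB5 (0.06), PSME1 (-0.95) and PSME2 (-0.44) lay in A. Beyond that border PSMC6 was at 0.59 and was not called. The median of the list was 0.59 against SCR and 0.51 against WT, beside -0.05 for all genes.

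Of 30 members of DNA replication, repair and mitosis, 13 (43.3%) were called higher and 0 lower against SCR by limma, and before adjustment 27 and 2 had a p under 0.05. The list median was 0.51. NIN and POLE2 of segment D were among them, as were PPP2R3C of segment B (1.23), DLGAP5, a mitotic spindle gene of E (1.14), and the dynein heavy chain gene DYNC1H1 of E (1.05). Of 23 members of adhesion, cytoskeleton and matrix, 13 (56.5%) were called higher and 3 (13%) lower, with a median of 0.97. AHNAK2, COCH, CFL2, CDC42BPB, a kinase that acts on actomyosin (1.49, E), the kindlin gene FERMT2 (1.26, E) and ACTN1, of alpha-actinin (1.17, E), were higher. TMEM30B (-0.91), DAAM1, a formin (-0.76), and the microtubule-binding EML1 (-0.99), all of E, were lower.

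Membrane traffic had 28 members, 10 (35.7%) called higher and 3 (10.7%) lower, with a median of 0.40, a share of higher calls near that of the ordered genes. SNX6, TMX1, a membrane thioredoxin (1.72, segment D), SCFD1, ERO1A and SEC23A were higher, and ATL1 and CLMN (-1.24, E) were lower. Kinases and signalling had 17 members, 6 (35.3%) higher and 1 (5.88%) lower, with a median of 0.47. Transcription factors had 18, with 6 (33.3%) higher and 2 (11.1%) lower and a median of 0.18, and here FOXN3 (1.32, E), HIF1A, the hypoxia-inducible factor (0.59, E), and YY1 (0.63, E) were higher while FOXA1 and FOS (-0.96, E) were lower. Ubiquitin and neddylation had 14 members with 3 (21.4%) higher and 0 lower by limma (8 and 1 at an unadjusted p under 0.05) and a median of 0.23. The 3 were G2E3, OTUB2, a deubiquitinase of E (1.36), and TRAF3 of E (0.95). DCAF11, the ubiquitin ligase adaptor called lower in segment A, was counted under translation and RNA processing. The 0 therefore holds for this list as fixed and not for every ubiquitin gene.

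Translation and RNA processing had 29 members, 6 (20.7%) higher and 2 (6.9%) lower, with a median of 0.21. The 2 lower ones were RBM23 and the ubiquitin ligase adaptor DCAF11. Metabolism and mitochondria had 36, 10 (27.8%) higher and 4 (11.1%) lower, with a median of 0.05. Both shares of higher calls lay below the 30.3% of the ordered genes. FUT8, a fucosyltransferase of N-glycans (1.15, E), and TIMM9, of mitochondrial import (1.03, E), were higher along with PYGL and MGAT2, and SLC7A8, ALDH6A1 and ADSS1 were lower. Chaperones had 6 members, of which DNAAF2 was called higher and 0 lower (before adjustment, 5 and 0 had a p under 0.05). None of the 16 fixed genes of the imprinted and serpin clusters reached level 7, and 14 of them had a transcript on the array. These lists were chosen with earlier results of these arrays known.

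Whether the shift reached transcripts that did not place the borders was read from dimmer and unnamed transcripts in the same arrays. In segment B the 13 genes of level 5 to 7 had medians of 0.78 against SCR and 0.89 against WT, with 11 above 0. The 7 members of B placed by ID number had 0.97 and 0.75 with 4 above 0, although 2 of these hold the same values and belong to the multicopy RNA gene RNU6-1. In segment D the 13 genes of level 5 to 7 had 0.15 and 0.19 with 10 above 0, and the 5 members placed by ID number had 0.29 and 0.19. Transcripts of level 5 to 7 placed by ID number, which were dimmer and had no RefSeq position, had medians of 0.01 and 0.04 in B (5 of 10 above 0) and 0.09 and 0.11 in D (6 of 10 above 0), so B held no upward shift in that set. In segment E neither set shifted upward, with -0.06 and -0.06 for 134 genes of level 5 to 7 (49 above 0 against SCR) and -0.06 and -0.04 for 51 members placed by ID number, and the 141 transcripts of level 5 to 7 placed by ID number had -0.06 and -0.07. Under level 5 the medians of the 6 segments lay between -0.06 and 0.05 against SCR.

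**Figure D4:**
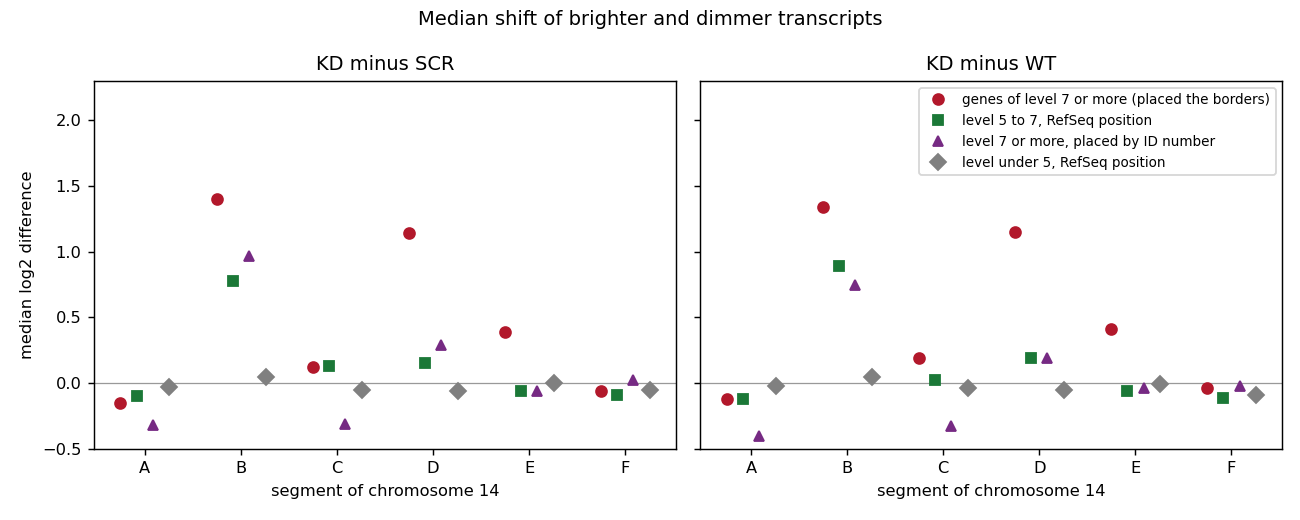
Median log2 difference (vertical axis) of 4 sets of transcripts in each segment, for KD minus SCR (left) and KD minus WT (right); each marker is the median of 1 set. In segment B the genes of level 5 to 7 stand at 0.78 and 0.89, below the brighter genes at 1.40 and 1.34, whereas in segment E they stand at -0.06 in both panels, against 0.39 and 0.41.

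The shift of E was thus seen in its brighter named genes and not in these sets. The sets were cut on means that include the KD arrays, so a gene higher in KD was more likely to leave the dimmer ones. Those dimmer sets were not cut again on the control arrays. With the level minimum taken on the 6 control arrays, so that a high KD level could not admit a gene, the median of E was 0.33 against SCR over 175 genes (131 above 0), that of B 1.40 over 21 genes and that of D 1.11 over 16 genes. Strand made little difference in E (0.41 on the plus and 0.42 on the minus strand against SCR). In B the 8 plus-strand genes had a median of 1.73 and the 10 minus-strand genes 1.30, and in D the order was the opposite, with 0.90 for 7 and 1.19 for 9 genes.

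The comparison of SCR with WT was not used to place the segments and could be tested. By limma 3 members were called higher in SCR and 0 lower, with 67 and 37 at an unadjusted p under 0.05, beside 0.141% and 0.074% of all transcripts called in each direction, or 0.349% and 0.139% of those of level 7 or more. The 3 SCR arrays lay above the 3 WT arrays in 104 members and below them in 74, beside 18.8% and 14.5% of transcripts of level 7 or more. Segment medians of SCR minus WT were between -0.03 and 0.02, and their steps at the 5 borders were between -0.05 and 0.04.

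The called members were AJUBA and CDH24 of segment A and SMOC1 of segment E. AJUBA had 9.60, 9.45 and 9.34 in KD arrays, 8.43, 8.50 and 8.45 in SCR and 7.48, 7.39 and 7.39 in WT arrays, so that SCR was 1.04 ± 0.07 above WT (limma, adjusted p = 0.0036). CDH24, a cadherin gene, had 7.90, 7.97 and 7.97 in KD arrays, 8.87, 8.92 and 8.87 in SCR and 8.02, 7.94 and 7.93 in WT arrays. SCR was 0.93 ± 0.05 above WT (limma, adjusted p = 0.00046), and KD and WT overlapped, so that a comparison of KD with SCR alone would show a fall. SMOC1 was 0.84 ± 0.06 higher in SCR than in WT (limma, adjusted p = 0.0059). The SMOC1 call was lost without SCR array 1 or any 1 of the WT arrays, and the AJUBA call without WT array 2, which left 1 called member.

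Set against the other chromosomes in the same way, chromosome 14 had the highest median KD minus SCR, and the segmentation gave 51 segments on 23 chromosomes. Of these, 15 were shared shifts, 9 up and 6 down, and they held 1187 of 9680 genes. Segments B and D had the highest medians of the 51. The next were 0.70 for 71 genes of chromosome 5 (CCDC127 to ITGA2) and 0.61 for 72 genes of chromosome 18 (ROCK1P1 to TPGS2). The rest of chromosome 18 stood at -0.64, and a stretch of 24 zinc finger genes and their neighbours on chromosome 19 (ZNF253 to ZNF254) at -1.13. Shared shifts were therefore not particular to chromosome 14. Chromosomes 14 and 19 had 6 segments each. As a description, the Spearman correlation between neighbouring genes in KD minus SCR was 0.35 on chromosome 14, within a range of -0.07 to 0.48 over chromosomes, and in SCR minus WT it was 0.02 on chromosome 14; neighbours share the arrays.

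**Figure D5:**
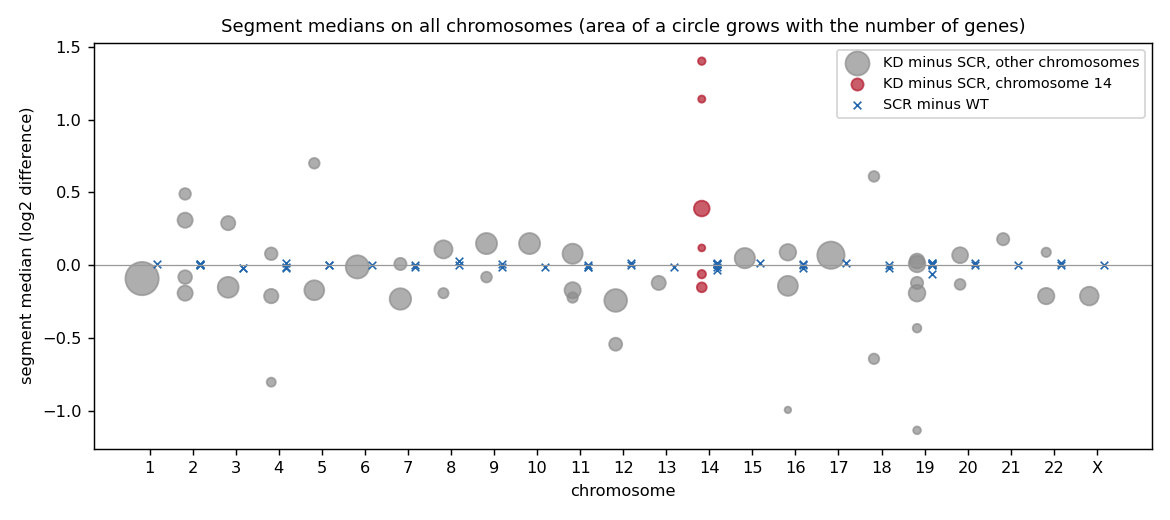
Median log2 difference (vertical axis) of each of 51 segments on 23 chromosomes (horizontal axis); circles are KD minus SCR, red for chromosome 14, with area growing with the number of genes, and crosses are SCR minus WT. Segments B and D of chromosome 14 stand highest at 1.40 and 1.14, and the lowest circle is -1.13 on chromosome 19.

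The borders differed in how far they withstood other settings. Over 22 alternative segmentations the border of A and B was found in all 22, that of B and C in 21, D and E in 20, and C and D and E and F in 19 each. With a level minimum of 6 the borders on either side of D were not found, and a border was placed inside E, before WDR89. With a level minimum of 8 segments B, C and D could not be told apart. Double the penalty also left both borders of D unfound. The border of E and F was not found in any of these 3 settings.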

How the data were processed

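The 9 arrays (3 KD, 3 SCR, 3 WT) were all used. According to the study's methods the authors used RMA, and deposited log2 intensities. The submitters' processing notes name Expression Console and Transcriptome Analysis Console 3.0. No source used here gives the genome build of the array annotation. RNA integrity numbers averaged 2.50 per the labels, a low value that stands for degraded RNA, and its effect on the levels was not tested. The number of arrays also limits the precision. Of 70523 rows, 2995 that are not transcript clusters were left out.

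Group means were fitted for all 67528 transcripts with limma 3.58.1 in R 4.3.3 (eBayes, 6 residual and 3.34 prior degrees of freedom, Bonferroni at 0.05). The methods name a one-way ANOVA with the same correction, which was an alternative. Python 3.11.15 placed the brightest transcript of each gene by RefSeq start (GRCh38.p14, also used for the promoter windows) and cut the order into segments. The cut minimised the summed absolute deviation from segment medians in KD minus SCR and KD minus WT together, with at least 8 genes a segment and a penalty of 7.95 per border. A border's range holds the positions whose cost lay within 2 times 0.456, the mean absolute deviation from a running median of 21 genes, of the best. Transcripts without a RefSeq position were placed by ID number, which gave the RefSeq segment in 781 of 788 checks. Scripts were tested on simulated data, with the sizes of the simulated shift set after earlier runs had been seen. A shift slightly above that of segment B was separated from its neighbours in every run, whereas with one slightly below that of segment D the shifted segments and the gap between them were merged in some runs. The members and gene lists were chosen with earlier results of these data known. Named genes are, in each segment, the 4 highest and 4 lowest without overlap and the 2 nearest the median, the 3 genes on each side of a border, members called in SCR minus WT, the 5 brightest, the 3 largest changes of each list and the members at the level minimum. List members outside that rule (DLGAP5, DYNC1H1, CDC42BPB, FERMT2, ACTN1, TMEM30B, DAAM1, EML1, CLMN, HIF1A, YY1, FOS, FUT8, TIMM9, PSMB5, PSME2 and PSMC6) were named after their values were seen. Alternatives covered normalization, adjustment, the fit, the level minimum, the penalty, the order and each array left out.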

Additional observations from a re-analysis of the deposited data

How the results depend on the processing

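Over the alternatives, segments B and D kept an upward median in both comparisons. Arrays centred on their medians gave 1.46 and 1.42 in B (KD minus SCR and KD minus WT), 1.21 and 1.22 in D and 0.45 and 0.49 in E. Means over genes gave 1.52 and 1.49, 1.24 and 1.22, and 0.34 and 0.36 in the same segments. A level minimum of 8 gave 1.47 and 1.42 in B, 1.22 against WT in D and 0.48 and 0.51 in E, and a minimum of 6 gave 1.29 against WT in B, 1.05 and 1.08 in D and 0.25 and 0.25 in E. Quantile normalization gave 0.42 and 0.45 in E, and the level minimum on the control arrays, chosen after seeing the data, 0.33 and 0.36. Transcripts of level 5 to 7 gave 0.78 and 0.89 in B, 0.15 and 0.19 in D and, with the direction reversed, -0.06 and -0.06 in E. Members placed by ID number gave 0.97 and 0.75, 0.29 and 0.19, and -0.06 and -0.04, also reversed in E. The cause of the difference between brighter and dimmer transcripts was not tested. With each array left out in turn the medians were 1.36 to 1.43 and 1.32 to 1.36 in B, 1.11 to 1.18 and 1.14 to 1.19 in D, and 0.38 to 0.39 and 0.38 to 0.43 in E.

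The chromosome fell into 3 segments in place of 6 with double the penalty and again with a level minimum of 8. That minimum put the A|B border before gene 60 of the order (SCFD1), the control-array minimum put it before gene 59 (G2E3), both in place of gene 58, and ordering by RefSeq end put C|D before gene 92 in place of gene 94. No border moved with any array left out.

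Counts of members called varied with the adjustment and the fit. Benjamini-Hochberg called 272 higher and 129 lower against SCR, 281 and 129 against WT, and 15 and 2 in SCR minus WT. A minimum fold of 2 left 73 and 28 against SCR, 76 higher against WT and 1 in SCR minus WT. A fit of only the compared groups called 83 and 87 higher, and the methods' ANOVA, with fewer degrees of freedom, 10 and 6 against SCR, 11 and 3 against WT and 0 in SCR minus WT (limma called 3, with 67 at an unadjusted p under 0.05). A level minimum of 8 left 27 lower against SCR and 23 against WT, and a minimum of 6 gave 67 lower against WT. Leaving out an array gave 93 to 117 higher against SCR, 94 to 121 against WT and 1 to 3 in SCR minus WT. Deviations of same-numbered arrays had correlations of -0.017 to 0.159, and those of differently numbered arrays -0.208 to 0.087. With 3 arrays a group, these small values cannot settle whether the numbers pair the arrays. With the array number as a replicate block, 92 members were called higher and 29 lower against WT, in place of 139 and 44. Segment medians could not move there, because every group holds each array number and the group differences stay the same. No called result for a named gene reversed with centred arrays, quantile normalization or an array left out. Uncalled differences close to 0 could change sign in these settings and were not counted as reversals. The other settings for named genes changed only the adjustment, the fold or the fit, so they could not reverse a difference.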

Other observations

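Chromosome 14 genes under level 7 were outside the members but held large differences. In segment C, the long noncoding RNA gene LINC00648 had 8.81, 8.54 and 8.53 in KD arrays, against 5.04, 5.02 and 5.03 in SCR and 5.07, 5.02 and 5.02 in WT arrays, 3.60 ± 0.07 above SCR. In segment B, SFTA3, a surfactant-associated gene, had 7.55, 7.61 and 7.44 in KD arrays, against 4.52, 4.39 and 4.47 in SCR and 4.38, 4.37 and 4.41 in WT arrays. COCH-AS1, antisense to COCH and also in B, was 2.64 ± 0.09 above SCR. FRMD6 of segment D, a scaffold of Hippo signalling, was 2.11 ± 0.08 above SCR. In segment E, GALC, the lysosomal galactosylceramidase, was higher in KD (2.56), and UNC79, of a sodium leak channel complex, was lower (-2.33). POTEG and POTEM of segment A, near-identical copies whose probes may read each other, were -2.70 ± 0.08 and -2.03 ± 0.10 from SCR. The mean SCR and WT levels of LINC00648, SFTA3 and COCH-AS1 and the mean KD levels of UNC79 and POTEG lay below the array medians. No detection values were used here, so the true size of these differences is not known. These genes were chosen after their values were seen.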
